A study of Mus musculus with 15 samples.

Results

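Filaggrin (Flg), filaggrin 2 (Flg2), hornerin (Hrnr), repetin (Rptn), trichohyalin (Tchh), trichohyalin-like 1 (Tchhl1) and cornulin (Crnn) form the fused S100 gene family. These 7 genes, of 23420 mouse genes in the deposited table, were chosen by symbol and followed through epidermis and tongue of newborn mice. The 4 groups of RNA libraries, all at postnatal day 1, were compared: epidermis with 3 wild-type and 4 knockout libraries, and tongue with 4 of each genotype. Knockout animals are Tmprss11a,b,c,d,e,f,g-/- and so lack the HAT/DESC cluster of membrane-anchored serine proteases, whose part in forming the epidermal barrier was the study's subject. Controls are labelled wildtype, and all samples, controls included, carry 1 strain label that names the cluster. The knockout is not restricted to a tissue in the labels, epidermis was peeled from the dermis after heating in EDTA, and tongue is not described as separated into layers.

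Fused S100 proteins join a calcium-binding S100 domain at one end to a long stretch of tandem repeats, and keratinocytes make them late, as they become cornified cells. Profilaggrin is stored in keratohyalin granules, cut by proteases into filaggrin units that bundle keratin filaments, and later broken down to amino acids that hold water in the stratum corneum. Trichohyalin hardens the inner root sheath of the hair follicle and the filiform papillae of the tongue, while repetin and cornulin are components of the cornified envelope that are prominent in stratified oral epithelia. RNA levels do not report the cutting of profilaggrin, which takes place in the protein.

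Library totals ran from 10117819 to 17819195 counts. Read as animals, the A-numbers in the labels (A325, for example) count 9 mice, and 6 of them are named for both tissues. These numbers fall in 3 ranges, A32x, A34x and A38x, whose meaning the labels do not give. In epidermis the mitochondrial ribosomal RNAs took 44.6% of the counts of WT 1 and between 20.1% and 23.8% in the other 6 libraries. The 6 epidermal keratinocyte markers (basal and suprabasal keratins and loricrin) summed to between 24074 and 50160 CPM in epidermis and between 923 and 1230 CPM in tongue, where CPM is the usual depth-scaled count, here after TMM scaling over all 15 libraries. The 7 markers of oral and tongue epithelium summed to between 650 and 2105 CPM in epidermis and between 6029 and 10108 CPM in tongue. Markers of other tissue marked the tongue too: the 9 skeletal muscle genes summed to between 28984 and 51789 CPM there, against 90.6 to 719 CPM in epidermis, and the 6 fibroblast genes to between 4881 and 6168 CPM, against 132 to 429 CPM. No marker of these lists was at 0 in a whole group. In bulk samples fewer cells of a type and less RNA per cell cannot be told apart. Of the targeted genes, 1 is not analysed here.

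All 7 genes lie on the plus strand of chromosome 3 (GRCm38), within 327.2 kb, in the order Crnn (93144787 to 93149819), Flg2 (93197278 to 93221391), Flg (93273523 to 93293686), Hrnr (93319749 to 93333570), Rptn (93393699 to 93399442), Tchh (93442330 to 93449077) and Tchhl1 (93468754 to 93471980). Their Ensembl identifiers in the deposited tables are, in the same order, ENSMUSG00000078657, ENSMUSG00000049133, ENSMUSG00000102439, ENSMUSG00000041991, ENSMUSG00000041984, ENSMUSG00000052415 and ENSMUSG00000027908. Neighbours are separated by 19.7 to 60.1 kb. Each gene has between 2 and 4 exons in its longest GENCODE transcript, and a single exon holds from 77.9% (Crnn) to 99.0% (Flg2) of that transcript.

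The repeats bear on what the counts can measure, because a read of 37 bases that fits several places of a transcript may have been discarded or kept by the read counter, whose rule is not given in the sources used here. Only 18.5% of the 37-base windows of Flg are unique in the transcriptome, against 31.7% of Flg2 and 30.5% of Hrnr. The share is 84.8% for Rptn and 86.7% for Tchh, and all windows of Tchhl1 and Crnn are unique. The most repeated 37-base window of each of the filaggrin-type genes is shown here to make the repeats visible. Each is taken from the GENCODE transcript and lies in exon 3, and its first copy is at chr3:93280327-93280363 for Flg, chr3:93203500-93203536 for Flg2 and chr3:93323713-93323749 for Hrnr.
Flg: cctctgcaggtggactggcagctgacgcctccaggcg
Flg2: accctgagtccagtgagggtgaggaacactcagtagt
Hrnr: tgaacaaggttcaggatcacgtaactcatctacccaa
The Flg window occurs 17 times at a median spacing of 751 bases, the Flg2 window 60 times at 234 bases and the Hrnr window 16 times at 513 bases. GENCODE marks the Flg and Flg2 models as affected by errors of the reference genome, so their lengths of 14497 and 20803 bases are less certain than the 11187 of Hrnr, 4146 of Rptn, 5823 of Tchh, 2066 of Tchhl1 and 1863 of Crnn. Flg encloses a pseudogene, and a noncoding gene runs along the opposite strand of Hrnr, Rptn and Tchh, in both cases without shared exon sequence. Of the Rptn windows, 0.27% also occur in the gene model Gm37857, whose exons overlap it.

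Start regions are shown for Flg and Flg2, which varied together in epidermis, for Rptn and Crnn, which varied together in tongue, and for Tchh. In the Tchh gene model each exon holds coding sequence, and the bases from its start site open with atg. Whether its window is a promoter was not tested. The sequences are RefSeq's (GRCm38.p6, plus strand), from 110 bases before the start site to 20 bases after it. Capitals mark matches to TGANTCA and to TATAAA, the letters of a common core promoter box, searched on both strands. TGANTCA, with N any base, is a loose pattern that includes TGACTCA, the usual core of sites for AP-1 factors.
Flg, chr3:93273436-93273565: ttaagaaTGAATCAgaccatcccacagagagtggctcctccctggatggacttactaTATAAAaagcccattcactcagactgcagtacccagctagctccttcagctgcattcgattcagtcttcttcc
Flg2, chr3:93197163-93197292: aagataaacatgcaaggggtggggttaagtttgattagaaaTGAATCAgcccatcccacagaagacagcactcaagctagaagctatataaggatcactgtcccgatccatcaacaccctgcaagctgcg
Rptn, chr3:93393589-93393718: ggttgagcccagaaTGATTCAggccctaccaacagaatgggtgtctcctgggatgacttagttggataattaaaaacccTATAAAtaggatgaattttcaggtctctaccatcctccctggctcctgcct
Crnn, chr3:93144679-93144808: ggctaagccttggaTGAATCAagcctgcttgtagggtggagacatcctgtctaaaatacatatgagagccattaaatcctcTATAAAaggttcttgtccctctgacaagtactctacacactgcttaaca
Tchh, chr3:93442220-93442349: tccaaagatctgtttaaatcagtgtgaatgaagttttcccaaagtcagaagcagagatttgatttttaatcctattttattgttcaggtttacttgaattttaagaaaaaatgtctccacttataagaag
A match to TGANTCA was present for 5 of the 7 genes (Crnn, Flg2, Flg, Rptn and Tchhl1), starting 69 to 103 bases before the start site. All 5 were TGAATCA, which is a case of TGANTCA, read on the plus strand in 4 genes and on the minus strand in Rptn. Among 32851 RefSeq promoters of 300 bases, 7.81% held TGANTCA and 2.81% held TGAATCA. The usual AP-1 core, TGACTCA, was in none of the 7 and in 5.20% of all promoters. TATAAA was present for 4 genes (Crnn, Flg, Hrnr and Rptn) and in 13.6% of all promoters, and it overlapped no TGANTCA match. TGAATCA was singled out after the sequences had been read, and a match is a description of the letters. Tchh and Tchhl1 also varied together in epidermis (Pearson r of log2 levels 0.91), and only Tchhl1 of that pair held a TGANTCA match. A link between shared letters and shared variation was not tested.

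The family divided sharply between the tissues of wild-type animals. Flg, Flg2 and Hrnr were higher in epidermis, by 365-fold, 3133-fold and 31.8-fold, and Tchhl1 by 3.26-fold. Rptn, Tchh and Crnn were higher in tongue, by 3.54-fold, 5.92-fold and 9.43-fold. All 7 passed edgeR's quasi-likelihood test (adjusted p under 0.05), as did 63.6% of all 16577 genes tested, so passing in itself does not set the family apart. The 4 higher and 3 lower members stand beside 32% and 31.6% of all genes. The size of the differences varied: the difference of Flg2 was larger than that of 99.96% of the genes tested and that of Flg larger than 98.97%, while Tchhl1 and Rptn were near 70.8% and 72.8%.

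**Figure D1:**
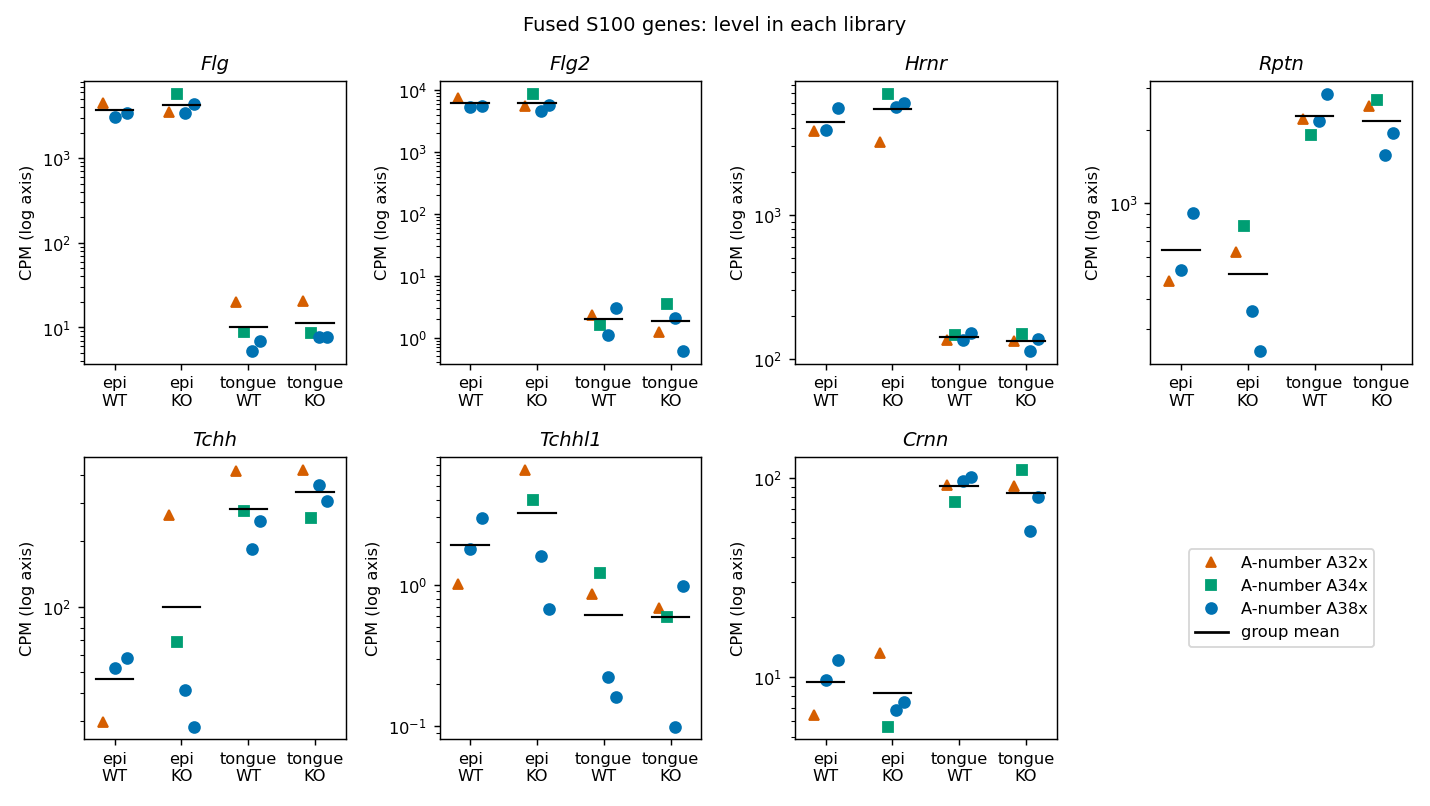
Level of each gene in every library, as CPM on a logarithmic axis that differs between panels; symbols give the range of the A-number, and the bar is the mean of the group (n = 3 for wild-type epidermis, n = 4 for the others). Flg, Flg2 and Hrnr sit far higher in epidermis, Rptn and Crnn higher in tongue, and within each tissue the wild-type and knockout points overlap for all 7 genes.

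Flg, the filaggrin precursor, stood at 4492, 3037 and 3413 CPM in wild-type epidermis WT 1 to WT 3. In wild-type tongue it stood at 19.9, 8.88, 5.30 and 6.86 CPM in WT 1 to WT 4. The lowest epidermis library lay far above the highest tongue library. WT 1 was highest in each tissue, but it is A325 in epidermis and A329 in tongue. The log2 fold change, epidermis over tongue, was 8.51 (SE 0.54, 95% interval 7.29 to 9.73; adjusted p = 1.37e-06).

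Flg2 encodes a relative of filaggrin with its own repeat types. It stood at 7527, 5368 and 5587 CPM in wild-type epidermis and at 2.30, 1.62, 1.12 and 2.99 CPM in wild-type tongue. No tongue library reached 4 CPM, and the tongue values rest on 15 to 37 counts a library. The log2 fold change was 11.61 (SE 0.46, interval 10.58 to 12.64; adjusted p = 1.24e-07).

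Hornerin is a filaggrin-like protein of the cornified envelope. Hrnr stood at 3828, 3927 and 5552 CPM in wild-type epidermis and at 134, 147, 135 and 150 CPM in wild-type tongue. The tongue libraries were close to each other, with a standard deviation of 8.12 around a mean of 142 CPM (n = 4), and again no library of one tissue reached the other. Its log2 fold change was 4.99 (SE 0.25, interval 4.42 to 5.56; adjusted p = 3.85e-07).

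The ratios between these genes also differed between tissues. Flg to Flg2 was 0.591 ± 0.0231 (SD, n = 3) in wild-type epidermis and 5.30 ± 2.63 (n = 4) in wild-type tongue. Hrnr to Flg went from 1.26 ± 0.389 to 17.7 ± 8.15 in the same groups. The counts of the 3 genes in tongue were therefore not in the proportions of epidermis: Hrnr was the chief filaggrin-type transcript there, and Flg2 the least.

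Repetin is an envelope precursor of tongue, forestomach and hair follicle. Rptn stood at 478, 531 and 911 CPM in wild-type epidermis and at 2231, 1913, 2197 and 2833 CPM in wild-type tongue. All tongue libraries were higher than all epidermis libraries, and the groups did not overlap. The log2 fold change was -1.82 (SE 0.30, interval -2.49 to -1.15; adjusted p = 0.000538).

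Cornulin is a late differentiation protein of squamous epithelia, abundant in oesophagus and oral mucosa. Crnn stood at 6.40, 9.69 and 12.2 CPM in wild-type epidermis and at 92.5, 75.5, 96.2 and 101 CPM in wild-type tongue. Every tongue library lay above every epidermis library, with a log2 fold change of -3.24 (SE 0.23, interval -3.75 to -2.72; adjusted p = 2.58e-06).

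Trichohyalin stood at 29.6, 52.4 and 58.2 CPM in wild-type epidermis and at 420, 274, 183 and 247 CPM in wild-type tongue. The lowest tongue library was above the highest epidermis library. WT 1 (A325) was the lowest in epidermis, and WT 1 of tongue, a different A-number (A329), was the highest there. The log2 fold change of Tchh was -2.57 (SE 0.34, interval -3.32 to -1.81; adjusted p = 0.000137).

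Tchhl1, the neighbour of trichohyalin on the chromosome, had few counts in both tissues. It stood at 1.01, 1.79 and 2.97 CPM in wild-type epidermis and at 0.861, 1.21, 0.224 and 0.161 CPM in wild-type tongue, the latter from 9, 15, 3 and 2 counts. In the fit of tongue alone Tchhl1 was left out by the filter on low counts, so it entered here through epidermis. The groups overlapped, since tongue WT 2 lay above epidermis WT 1. Its log2 fold change was 1.71 (SE 0.63, interval 0.29 to 3.12; adjusted p = 0.0380), and the call was lost without any of epidermis WT 2, epidermis WT 3, tongue WT 1, tongue WT 3 or tongue WT 4 (adjusted p from 0.0559 to 0.165).

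Groups did not overlap for 6 of the 7 genes in wild type, against 65.7% of all genes tested. Without epidermis WT 1, the library with the high mitochondrial share, all 7 still passed, with log2 fold changes from -3.05 for Crnn to 11.44 for Flg2. A different scaling bears on these folds, because epidermis and tongue differ in make-up. Scaled to Krt5 and Krt14, keratins of basal keratinocytes in both tissues, the median of all genes moved by -2.70 and the share of called genes that were higher in epidermis went from 50.3% to 2.47%. On that scale Flg, Flg2 and Hrnr were still higher in epidermis (log2 fold changes 5.86, 9.01 and 2.30) and Rptn, Tchh and Crnn still lower (-4.53, -5.34 and -6.00). Tchhl1 changed sign, to -1.04 (adjusted p = 0.161).

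Knockout animals showed the same division of the family between tissues, in the same direction for all 7 genes. All 7 passed, against 63.8% of 16398 genes, and 5 did not overlap, against 58.5%. The 4 that were higher in epidermis and the 3 that were lower stand beside 32.7% and 31.1% of all genes. The log2 fold changes, epidermis over tongue, were 8.58 for Flg, 11.73 for Flg2, 5.38 for Hrnr, -2.09 for Rptn, -1.72 for Tchh, 2.38 for Tchhl1 and -3.30 for Crnn. Tchh passed narrowly (SE 0.61, adjusted p = 0.0306), because epidermis KO 1, at 262 CPM, lay among the tongue libraries of 255 to 425 CPM. Without KO 1 its value was -2.85 (adjusted p = 1.07e-05), and without any one of the other 7 libraries the call was lost (adjusted p from 0.0550 to 0.0960). Scaled to Krt5 and Krt14, the median of all genes moved by -2.97 and the share of called genes that were higher in epidermis went from 51.2% to 2.13%. Tchhl1 alone of the family then changed sign, to -0.71 (adjusted p = 0.268). In the A38x libraries alone Tchhl1 had a value of 0.86 and its call was lost (adjusted p = 0.337).

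**Figure D2:**
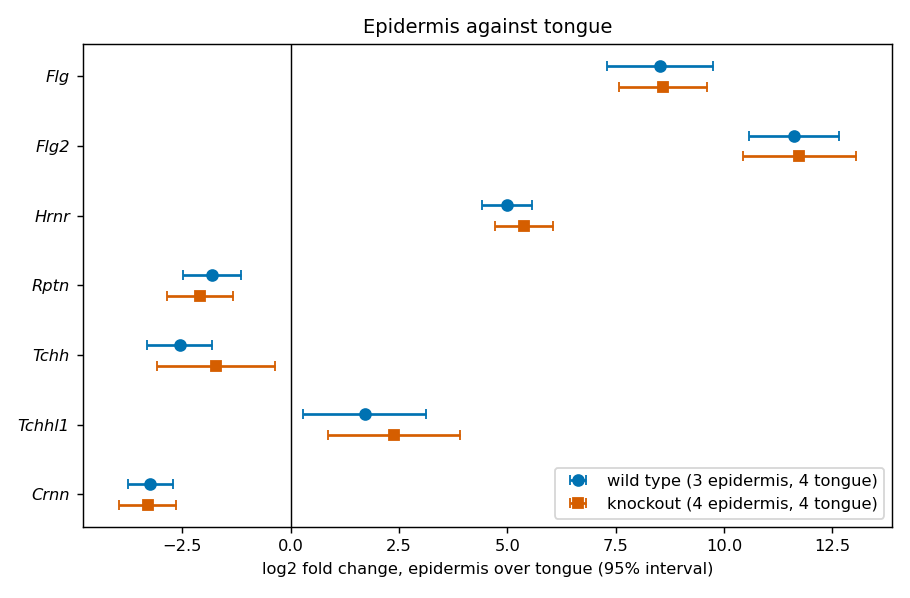
Log2 fold change of each gene, epidermis over tongue, in wild-type and knockout animals, with 95% intervals from edgeR's fit (points right of 0 are higher in epidermis). Flg, Flg2, Hrnr and Tchhl1 lie right of 0 and Rptn, Tchh and Crnn left of it in both genotypes, from -3.30 for Crnn in knockouts to 11.73 for Flg2 in knockouts.

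Levels of different genes were compared per kilobase of the longest transcript. In wild-type epidermis the order of the mean level was Hrnr (397 CPM per kb), Flg2 (296), Flg (252), Rptn (154), Tchh (8.02), Crnn (5.06) and Tchhl1 (0.932). Neighbours overlapped in range among the first 4 genes and between Tchh and Crnn, whereas Rptn and Tchh, and Crnn and Tchhl1, were separate. In wild-type tongue the order was Rptn (553 CPM per kb), Crnn (49.1), Tchh (48.2), Hrnr (12.7), Flg (0.706), Tchhl1 (0.297) and Flg2 (0.0963). There Rptn stood clear of all others, Crnn and Tchh overlapped, Hrnr stood alone, and the last 3 overlapped with their neighbours.

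The repeats change part of this order. Per kilobase of unique 37-base windows, which assumes that only reads with 1 possible place were counted, Flg moved to the first place in wild-type epidermis (1366 CPM per unique kb), ahead of Hrnr (1303) and Flg2 (937), with Rptn at 184. Ranges of Flg and Hrnr overlapped, and so did those of Hrnr and Flg2, and Rptn stood clear of all 3. In wild-type tongue Rptn kept its place at 658, and Hrnr (41.6) came close to Crnn (50.03) and Tchh (56.0). The windows take each 37-base read alone, whereas reads came in pairs, so they may understate what could be placed in Flg, Flg2 and Hrnr. Both scales use the longest transcript, whereas counts are per gene. The exons of all Flg transcripts cover 18829 bases, against 14497 in its longest, while for Flg2 and Hrnr these lengths are the same. What this does to the place of Flg, and which of these scales fits the counts, was not tested. Comparisons of 1 gene between libraries use the same length on each side and do not depend on the choice.

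**Figure D3:**
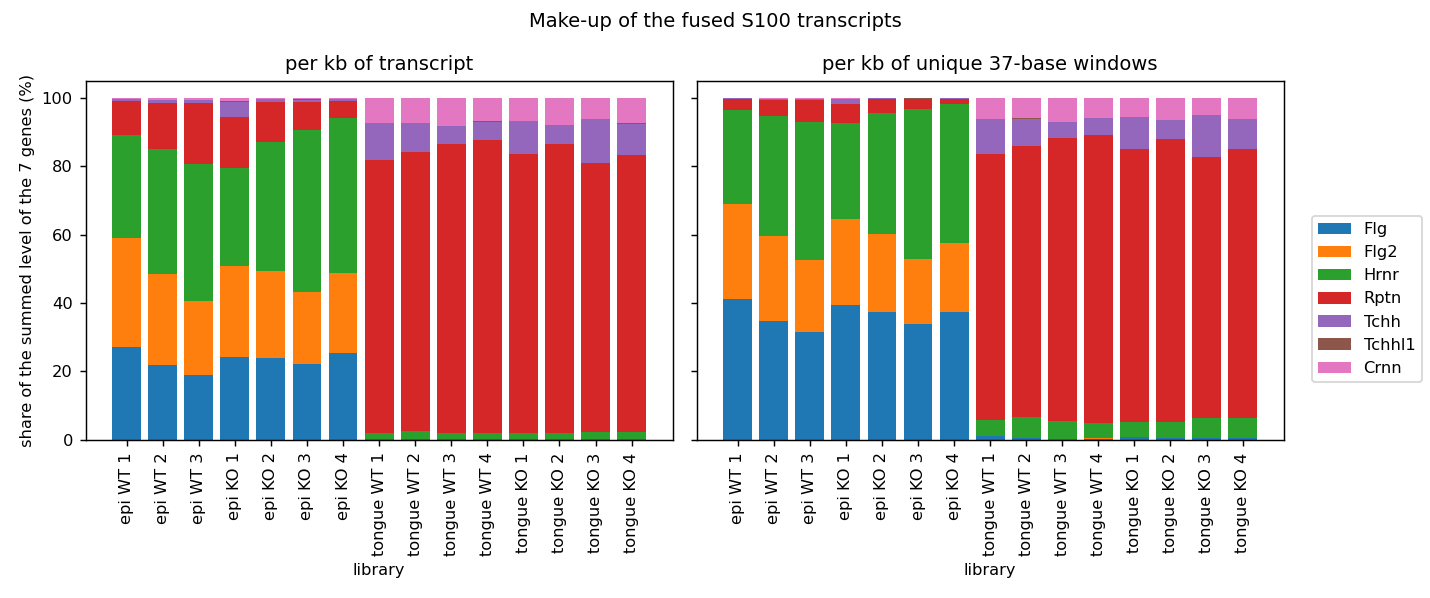
Share of each gene in the summed level of the 7 genes in every library, per kb of transcript (left) and per kb of unique 37-base windows (right). Rptn makes up from 78.9% to 86.0% of the family in the tongue libraries on the left scale, while Hrnr, Flg2 and Flg share most of the epidermis bars and Flg widens on the right scale.

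The make-up of the family also varied within each tissue. Per kb, Rptn took between 78.9% and 86.0% of the family in the 8 tongue libraries, Crnn between 6.03% and 8.26%, and Tchh between 5.03% and 12.9%. In the 7 epidermis libraries Hrnr took between 28.7% and 47.6%, Flg between 19.0% and 27.2%, Flg2 between 21.04% and 31.8% and Rptn between 4.98% and 17.8%. As a part of all counts, the 7 genes together took between 1.44% and 2.28% in epidermis and between 0.199% and 0.311% in tongue.

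Loss of the proteases was not accompanied by a change in any member that passed the test, in either tissue. In epidermis none of the 7 genes passed edgeR's quasi-likelihood test, and of all 16073 genes tested 0% passed. An unadjusted p under 0.05 in that test was found for 187 genes, fewer than chance alone would give. DESeq2 called 1 gene and limma-voom 0. In tongue none of the 6 members tested passed, against 0.0127% of 15741 genes, and Tchhl1 was left out by the filter on low counts. The 2 genes called in tongue were Tmprss11a and Tmprss11b, which were targeted and fell. Marker lists of other cells also leaned towards the knockouts in epidermis: all 9 muscle genes lay above 0 with a median of 1.25, and their sum was between 99.4 and 257 CPM in wild type and between 90.6 and 719 CPM in knockouts, highest in KO 2. None of the 9 passed, and their part in the members' values was not tested. In neither tissue did knockout and wild-type libraries separate for any member, where 2.20% of all genes in epidermis and 2.29% in tongue did.

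In knockout epidermis KO 1 to KO 4, Flg stood at 3532, 5728, 3392 and 4335 CPM. Against wild type its log2 fold change was 0.19 (SE 0.30, interval -0.48 to 0.86; adjusted p = 0.9998, as for all members in epidermis). KO 2 was the highest of the 7 epidermis libraries, and the other knockouts lay within the wild-type range. Flg2 stood at 5606, 8731, 4626 and 5785 CPM, with a log2 fold change of -0.02 (SE 0.31, interval -0.73 to 0.68). Here too KO 2 was highest, and KO 3 was lowest. Hrnr stood at 3231, 6953, 5621 and 6042 CPM, with a log2 fold change of 0.27 (SE 0.33, interval -0.48 to 1.02). KO 2, KO 3 and KO 4 lay above all wild-type libraries and KO 1 below them all.

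Rptn stood at 625, 803, 358 and 245 CPM in knockout epidermis, with a log2 fold change of -0.37 (SE 0.41, interval -1.28 to 0.54). KO 3 and KO 4 were lower than every wild-type library, and KO 1 and KO 2 lay within their range. Crnn stood at 13.3, 5.63, 6.83 and 7.50 CPM, with a log2 fold change of -0.21 (SE 0.35, interval -0.99 to 0.58). Tchh stood at 262, 68.5, 41.3 and 28.2 CPM, with a log2 fold change of 1.07 (SE 0.82, interval -0.91 to 3.05). That value rests on KO 1: without it the log2 fold change was -0.08. Tchhl1 stood at 6.55, 3.98, 1.61 and 0.672 CPM, with a log2 fold change of 0.68 (SE 0.70, interval -0.89 to 2.25), which became 0.01 without KO 1.

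In tongue the intervals were narrower for the abundant members. Rptn stood at 2519, 2674, 1579 and 1949 CPM in knockout tongue KO 1 to KO 4, with a log2 fold change of -0.07 (SE 0.18, interval -0.46 to 0.31; adjusted p = 0.962), which bounds the ratio of knockout to wild type between 0.727 and 1.24. Hrnr stood at 133, 150, 114 and 138 CPM, with a log2 fold change of -0.08 (SE 0.10, interval -0.30 to 0.14), a ratio between 0.810 and 1.10. KO 3 was the lowest of the 8 tongue libraries for both genes. Crnn stood at 90.8, 110, 54.3 and 80.0 CPM, with a log2 fold change of -0.12 (SE 0.18, interval -0.52 to 0.27). Tchh stood at 425, 255, 362 and 305 CPM, with a log2 fold change of 0.26 (SE 0.24, interval -0.27 to 0.79). KO 2 was the highest library of all for Crnn and the lowest knockout for Tchh. Scaled to Krt5 and Krt14, the median of all genes in tongue moved by 0.19 and 75% of 8 called genes lay above 0, against none of 2; Hrnr, Rptn and Crnn then had values of 0.12, 0.10 and 0.05, and no member passed.

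The scarce members were measured with little precision in tongue. Flg stood at 20.7, 8.50, 7.75 and 7.79 CPM in knockout tongue, with a log2 fold change of 0.14 (SE 0.48, interval -0.94 to 1.22). Flg2 stood at 1.23, 3.50, 2.09 and 0.614 CPM, with a log2 fold change of -0.12 (SE 0.47, interval -1.16 to 0.92). Tchhl1 had 9, 8, 1 and 16 counts, or 0.691, 0.596, 0.0994 and 0.982 CPM, and it was not tested at this depth.

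**Figure D4:**
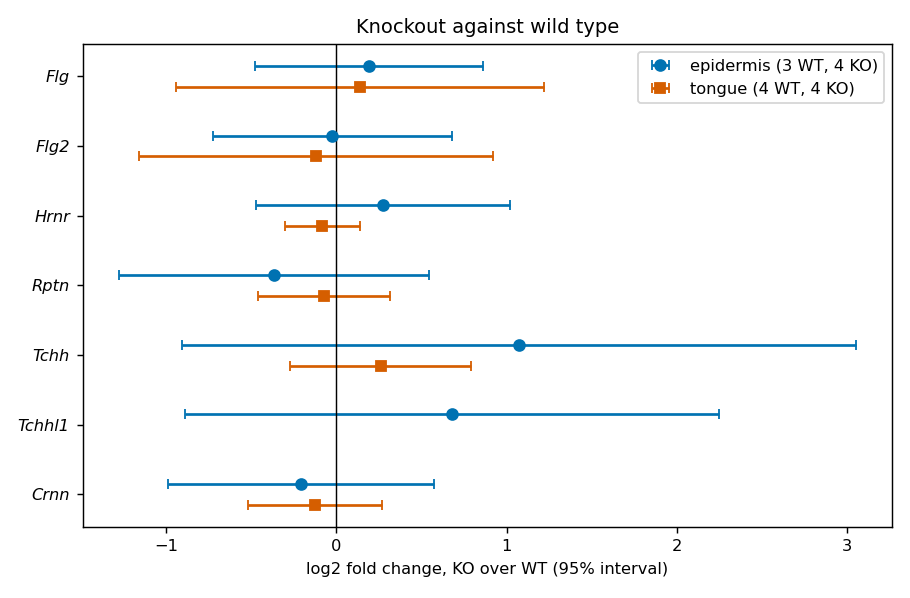
Log2 fold change of each gene, knockout over wild type, in epidermis and tongue with 95% intervals from edgeR's fit; Tchhl1 was not tested in tongue. Every interval includes 0, the narrowest being Hrnr in tongue (-0.30 to 0.14) and the widest Tchh in epidermis (-0.91 to 3.05).

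Some values differed inside the A38x range, the only one with 2 wild-type and 2 knockout libraries of each tissue. There the log2 fold changes in epidermis were 0.25 for Flg, -0.08 for Flg2, 0.29 for Hrnr, -1.26 for Rptn, -0.67 for Tchh, -1.05 for Tchhl1 and -0.62 for Crnn. In tongue they were 0.36 for Flg, -0.70 for Flg2, -0.17 for Hrnr, -0.51 for Rptn, 0.64 for Tchh and -0.55 for Crnn. No member passed in either (smallest adjusted p = 0.0638, Tchh in epidermis), while 604 genes of epidermis and 15 of tongue did. The other ranges had at most 1 library of a genotype in a tissue and give no test.

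The effect of the knockout was also compared directly between tissues, with the difference of the log2 fold changes, epidermis minus tongue. None of the 7 genes passed edgeR's test, nor did any of 17935 genes (0%). In that test 299 had an unadjusted p under 0.05, again fewer than chance alone would give. DESeq2 called 1 gene and limma-voom 0. The differences were 0.08 for Flg (SE 0.58), 0.13 for Flg2 (SE 0.59), 0.38 for Hrnr (SE 0.34), -0.26 for Rptn (SE 0.48), 0.83 for Tchh (SE 0.81), 0.70 for Tchhl1 (SE 1.06) and -0.07 for Crnn (SE 0.38). The interval of Hrnr, -0.34 to 1.11, was the narrowest. Scaled to Krt5 and Krt14, the median of all genes moved by -0.27, and Flg and Flg2 changed sign, to -0.26 and -0.17. The largest differences also turned: Tchh became -0.35 with the animal as a block and -1.32 in the A38x libraries, and Tchhl1 became -1.38 and -2.70. Of the wild-type animals only A383 and A384 are named for both tissues. The wild-type side of the blocked values thus rests on A38x animals as well, and the 2 settings are not separate checks. The tongue side of the Tchhl1 values rests on 1 to 16 counts a library, too few for the filter in the fit of tongue alone. Without epidermis KO 1 the difference for Tchh was -0.29.

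Between epidermis libraries, the trichohyalin genes varied most, and they varied with the keratins of the inner root sheath. Tchh ranged 9.31-fold and Tchhl1 9.75-fold over the 7 libraries, against 1.89-fold for Flg, 1.89-fold for Flg2, 2.15-fold for Hrnr, 2.35-fold for Crnn and 3.72-fold for Rptn. Tchh and Tchhl1 ranked the libraries in the same order, KO 1, KO 2, WT 3, WT 2, KO 3, WT 1 and KO 4. Krt71, a keratin made in the inner root sheath, stood at 10.0001, 53.8 and 64.6 CPM in WT 1 to WT 3 and at 241, 92.7, 49.3 and 10.97 CPM in KO 1 to KO 4, with the same 5 libraries on top in the same order. Krt73, another such keratin, ranked all 7 libraries as Tchhl1 did, from 61.6 CPM in KO 1 to 2.58 CPM in KO 4. The inner root sheath list as a whole (12 genes) summed to between 163 and 824 CPM in epidermis, highest in KO 1. In the test of knockout against wild type, 11 of its 12 genes lay above 0 and none passed (median 0.98, against 0.00 over all genes). The part of hair follicle content in the Tchh and Tchhl1 values was not tested.

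In tongue Tchh was high where those keratins were almost missing. Krt71 was between 0 and 0.224 CPM in the 8 tongue libraries and Krt25, its partner in the root sheath, between 0 and 0.574 CPM. Tchh was between 183 and 425 CPM in the same libraries. Krt36 and Krt84, hair-type keratins of the filiform papillae, were between 344 and 483 CPM and between 320 and 425 CPM, while in epidermis they reached at most 5.97 and 2.40 CPM. The ratio of Tchh to Krt71 was between 0.739 and 2.96 in the epidermis libraries and at least 1139 in the 5 tongue libraries with a Krt71 count. Tchhl1 did not follow Tchh into the tongue: Tchh to Tchhl1 was 26.0 ± 5.57 in wild-type epidermis (n = 3) and between 226 and 1529 in wild-type tongue (n = 4).

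**Figure D5:**
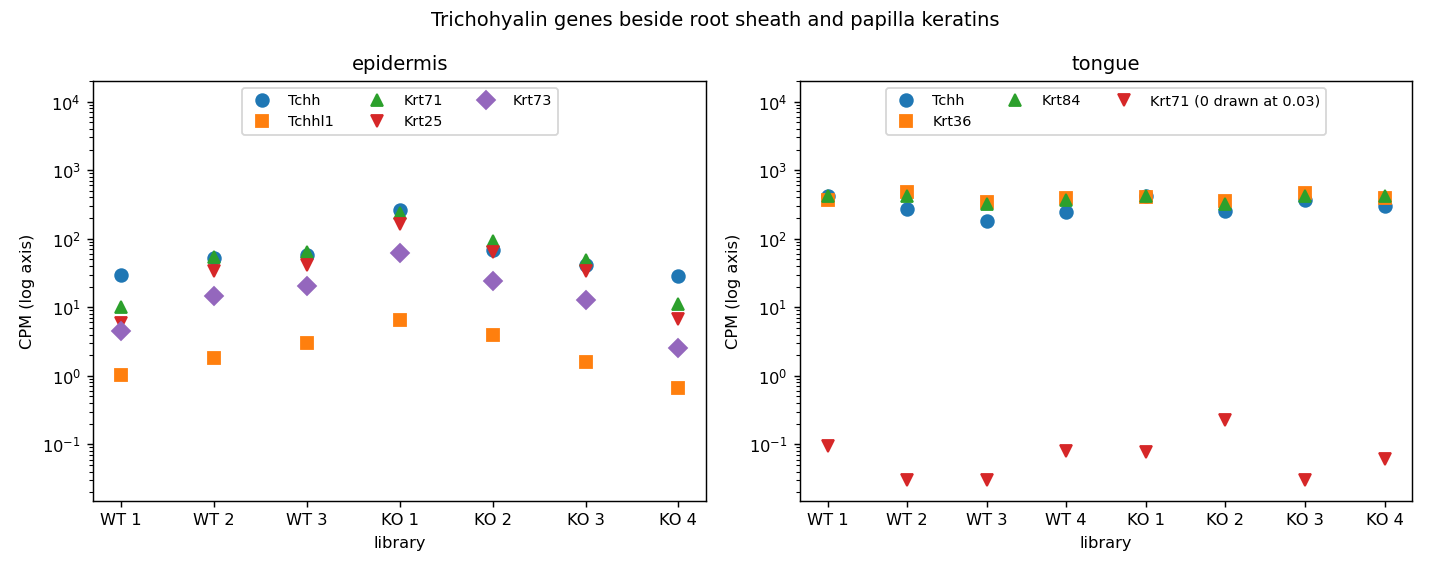
Level of Tchh and Tchhl1 beside root sheath keratins (Krt71, Krt25, Krt73) in each epidermis library, and of Tchh beside papilla keratins (Krt36, Krt84) and Krt71 in each tongue library, as CPM on a logarithmic axis. In epidermis all 5 genes peak in KO 1; in tongue Tchh lies between 183 and 425 CPM while Krt71 stays at or under 0.224 CPM, libraries without a Krt71 count being drawn at the bottom.

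Among tongue libraries Flg split by the range of the A-number. It stood at 19.9 and 20.7 CPM in the A32x libraries (WT 1 and KO 1) and at 8.88 and 8.50 CPM in the A34x libraries. In the 4 A38x libraries it stood between 5.30 and 7.79 CPM. How many of all genes split in this way was not counted. Deviations of WT 1 and KO 1 from their group means correlated at 0.543 over 15736 genes, so their likeness was not confined to Flg. Tchh was also highest in WT 1 and KO 1, at 420 and 425 CPM, against at most 362 CPM elsewhere. Krt10, a suprabasal keratin of skin, was 80.7 and 70.4 CPM in those 2 libraries and between 34.8 and 48.7 CPM in the other 6. Other skin keratinocyte markers did not single out these libraries: Krt1 in KO 1 (32.7 CPM) was below KO 2 (36.9 CPM), loricrin (Lor) in WT 1 (74.8 CPM) was below WT 2 (86.1 CPM), and the 6 markers summed to 1134 and 1120 CPM against 923 to 1230 CPM elsewhere. Flg2 and Hrnr were not raised there, with 2.30 and 1.23 CPM for Flg2 and 134 and 133 CPM for Hrnr. The ranges were noticed in the data and the cause was not tested.

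Other members moved in pairs. Flg and Flg2 ranked the epidermis libraries almost alike, both highest in KO 2 and next in WT 1 (Pearson r of log2 levels 0.88, Spearman 0.96, n = 7), and Rptn and Crnn moved together in tongue, both lowest in KO 3 and next in WT 2 (0.92 and 0.88, n = 8). In the other tissue r was 0.05 for Flg against Flg2, where Flg2 rests on 10 to 47 counts a library, and 0.34 for Rptn against Crnn; the difference between tissues was not tested. These correlations describe few libraries that share preparation and depth, out of 42 pairs computed. Krt13 and Krt4, the main keratins of oral mucosa, were highest in tongue WT 4 and KO 2, as were Rptn and Crnn.

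Over all 15 libraries, the genes whose log2 levels were most like those of a member mostly followed the split between tissues. For Flg2 they were Cyp2b19 (r = 0.998), Lce1m (0.997) and Casp14 (0.997), the last being the caspase that takes part in filaggrin breakdown. For Flg they were Crybg1 (0.997), Arhgef5 (0.996) and Krt10 (0.996), and for Hrnr Skint1 (0.998), Lipm (0.998) and Il1f5 (0.996). For Tchh they were Cux1 (0.980), Pcdh19 (0.972) and Prickle2 (0.968), for Rptn Grb14 (0.979), Trib2 (0.978) and Fam198b (0.976), and for Crnn Cers2 (0.992), Bola3 (0.992) and Capns1 (0.992). Tchhl1 had no close match (Snhg12, 0.875). Within the 7 epidermis libraries the genes most like it were Krt73 (0.976) and Krt75 (0.971), keratins of the hair follicle, and Slfn9 (0.968). In the same libraries Flg was most like Nfat5 (0.981), Flg2 most like Gsk3b (0.993) and Hrnr most like Camk2d (0.987). Within the 8 tongue libraries Rptn was most like Cd24a (0.968), Trim16 (0.964) and Prkar2a (0.955), Crnn most like Nucb2 (0.984), and Tchh most like Slc22a23 (0.974) and Sp6 (0.971). These are the highest of 8296 to 9033 genes compared and are given as a description.

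Genes that work with the family split between wild-type tissues in part along the same line. Of the enzymes that process and break down filaggrin, 14 of 16 tested were higher in epidermis and 1 lower, with a median log2 fold change of 3.19 against 0.03 over all genes. Asprv1, the protease that trims the linkers of profilaggrin, went from 320 ± 97.6 CPM in tongue (n = 4) to 4117 ± 305 CPM in epidermis (n = 3), a log2 fold change of 3.71. Bleomycin hydrolase (Blmh), which degrades filaggrin to amino acids, had a log2 fold change of 2.68, and the kallikrein Klk7 one of 3.87. Of the cornified envelope partners 19 of 24 were higher in epidermis and 3 lower (median 2.20), with values of 1.85 for Krtdap, 2.13 for Ppl and 2.62 for Dsc1. Among regulators of late differentiation 17 of 20 were higher and 1 lower (median 1.88), including Klf4 (1.64), Trp63 (1.47) and Grhl1 (1.92). Of all genes, 32% were called higher and 31.6% lower. The count filter in the fit of tongue alone kept 14 of the enzymes, 19 of the envelope partners and 18 of the regulators. Some genes of these lists thus entered through their epidermis counts.

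The hair-type and papilla keratins split the other way, while most inner root sheath genes were higher in epidermis. All 11 hair-type and papilla keratins tested were higher in tongue, with a median log2 fold change of -4.81 and values of -9.02 for Krt36, -9.11 for Krt84 and -7.16 for Krt24. Krt24 did not pass the count filter in the fit of epidermis alone. It entered through its tongue counts, and its direction is no separate result. Of the inner root sheath list 8 of 10 were higher in epidermis (Krt71, 9.76) and 1 lower, Trps1 (-2.85). In the fit of tongue alone only 2 genes of this list, Tgm3 and Trps1, passed the count filter. The 8 therefore entered through their epidermis counts, and their direction is no separate result. Tgm3, the transglutaminase that links trichohyalin, had a value of -0.44 (SE 0.27, adjusted p = 0.181). The S100 genes without a fused repeat domain were mixed, with 3 of 13 higher in epidermis and 6 lower (median -0.88). The count filter kept 11 of them in the fit of epidermis alone and 12 in that of tongue alone, so some entered through 1 tissue. Among the most abundant of these S100 genes S100a14 was higher in epidermis (0.98, adjusted p = 0.0378), and S100a10 (-0.59) and S100a16 (0.63) did not pass.

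Against wild type, no member of these 6 lists passed in the knockouts of either tissue. In epidermis the median log2 fold change was 0.23 for the filaggrin enzymes (16 tested), 0.18 for the envelope partners (25), 0.31 for the regulators (20), 0.82 for the hair-type keratins (11) and 0.23 for the plain S100 genes (11), where the median of all genes was 0.00. In tongue the medians were 0.17, 0.04, 0.13, -0.16 and -0.28 in the same order, against 0.01. The inner root sheath list had only 2 genes tested in tongue. The hair-type keratins of epidermis summed to 61.7 and 39.5 CPM in KO 1 and KO 2, to 12.4 and 5.43 CPM in KO 3 and KO 4, and to between 7.30 and 19.7 CPM in wild type, so KO 1 and KO 2 alone lay above the wild-type range.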

How the data were processed

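Libraries were made with the SMARTer V4 Ultra Low Input and TruSeq v2 kits and read as pairs of 37 bases, per the labels' protocols. Alignment with STAR 2.5.2a and the builds GRCm38.p3 and mm10 are named in the submitters' processing notes; the read counter, its strand setting, its treatment of reads with several places and its annotation are not given in the labels. The authors deposited raw counts per Ensembl gene, which were tested, and a table of signal values, each a count divided by a constant of its library, which served to find the members by symbol. Of 23422 entries, 2 are transgenes, which entered neither library sizes nor tests.

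CPM used TMM factors over all 15 libraries. Genes kept by filterByExpr (minimum count 10) in each comparison were tested with edgeR 4.0.16 (quasi-likelihood, robust, two-sided) in R 4.3.3, with Benjamini-Hochberg adjustment over all genes tested and a threshold of 0.05; intervals are at 95%. DESeq2 1.42.0, limma-voom (limma 3.58.1), other scalings, no filter, blocks, the A38x libraries and leaving out each library were alternatives. The tests were tried on simulated data. Gene models came from GENCODE M21, and promoters from RefSeq (GRCm38.p6), which held all 7 members.

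Groups and replicate numbers came from the titles. By the data alone, numbers 1 to 3 matched wild-type and knockout epidermis only in part (correlation of deviations 0.669, 0.246 and 0.440). Of 7 epidermis libraries, 5 correlated best with their own number in the other genotype, while WT 2 correlated best with KO 3 (0.431). KO 4 could not match its own number, since epidermis has no wild-type library of that number. In the knockouts a number is the same animal in both tissues. In wild type it is not: A383, for example, is WT 2 in epidermis and WT 3 in tongue. Beyond A-numbers, the labels do not say that samples were separate animals, so p-values measure only the spread between these samples. Members, lists and tests were chosen with earlier results of these data known. Named were all members, up to 3 list genes by mean CPM, and up to 3 most alike genes per member with a mean CPM of at least 10; the other keratins were picked after their values were seen.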

Additional observations from a re-analysis of the deposited data

Results flagged for a closer look

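Flg in tongue KO 1, at 20.7 CPM, stood apart from KO 2 to KO 4, which lay between 7.75 and 8.50 CPM; the gap was 0.943 of the range of the group; that is past the Dixon limit for 4 samples. It was 1 of 21 sets of 4 libraries examined, and chance alone picks out about 1 set in 20. The wild-type tongue library of the same A-number range had 19.9 CPM. The cause was not tested.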

How the results depend on the processing

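Over 91 fits, no member was called in any comparison of knockout with wild type or in their difference, and 6 or 7 members were called in each tissue comparison. The count of all genes called moved more. In epidermis it was 0 and became 1 with DESeq2, 1 blocked by A-number range, 1 with all 4 groups in the fit and 604 in the A38x libraries alone. In tongue it was 2 and became 4 with DESeq2, 8 when scaled to Krt5 and Krt14, and 15 in the A38x libraries. For the difference between tissues it was 0 and became 1 with DESeq2, 19 in the A38x libraries, and between 0 and 1 when each library was left out.

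With the replicate number as a block, 0 genes were called in epidermis and 2 in tongue, and no member. Tongue numbers do not pair the samples (correlations of deviations 0.543, 0.108, -0.106 and 0.217; 3 of 8 libraries correlated best with their own number). With the animal as a block 10153 genes were called between knockout tissues, 11290 between wild-type tissues and 0 for the difference, and the block changed no member's call. In wild type that block rests on A383 and A384, the only wild-type animals named for both tissues.

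Several values changed sign. In epidermis Flg2 became 0.0048 without a filter and 0.0061 with all 4 groups, and in the A38x libraries Tchh became -0.67 and Tchhl1 -1.05. In tongue, scaled to Krt5 and Krt14, Hrnr became 0.12, Rptn 0.10 and Crnn 0.046. The difference for Flg became -0.014 with limma-voom, -0.26 on the Krt5 and Krt14 scale, -0.12 in the A38x libraries and -0.38 with the animal as a block. The difference for Flg2 became -0.17 on that scale. That for Tchh became -1.32 in the A38x libraries and -0.35 with the block, and that for Tchhl1 -2.70 and -1.38. Tchhl1 became -1.04 between wild-type and -0.71 between knockout tissues on the Krt5 and Krt14 scale.

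Leaving out each library gave ranges in epidermis of -0.22 to 0.15 for Flg2, -0.076 to 1.37 for Tchh and -0.54 to 0.026 for Crnn. In tongue they were -0.34 to 0.68 for Flg, -0.66 to 0.20 for Flg2, -0.18 to 0.054 for Rptn and -0.28 to 0.035 for Crnn. For the difference they were -0.46 to 0.56 for Flg, -0.19 to 0.67 for Flg2, -0.57 to 0.089 for Rptn, -0.29 to 1.14 for Tchh and -0.39 to 0.16 for Crnn. The cause was not tested. Depth limits Tchhl1 and Flg2 in tongue, with 1 to 16 and 10 to 47 counts a library.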
